A study of Rattus norvegicus with 12 samples.

Results

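Expression of the respiratory chain subunits that act after complex I was examined in left ventricles of VEGF-B transgenic (TG) and wild-type (WT) rats. The genes were chosen by symbol. They were Sdha to Sdhd for complex II, symbols starting with Uqcr together with Cyc1 for complex III, Cycs for cytochrome c, symbols starting with Cox4i, Cox5, Cox6, Cox7 or Cox8 for complex IV, and symbols starting with Atp5 for complex V. Of 22517 probes on the array, 33 fitted this rule, each from a different gene out of 13336 genes with a named probe. They fell into 4 for complex II, 4 for complex III, 1 for cytochrome c, 11 for complex IV and 13 for complex V. The rule covered 64 protein-coding rat genes in RefSeq, and 31 of them, including Cyc1, Uqcrc2, Cox6b1, Cox7a1, Cox7a2, Cox7c and Atp5pb, had no named probe and were not measured here.

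The respiratory chain sits in the inner mitochondrial membrane. Complex II oxidises succinate and complex III passes electrons to cytochrome c, which delivers them to complex IV for the reduction of oxygen, while complex V uses the proton gradient built by complexes I, III and IV to make ATP. The heart is among the tissues richest in mitochondria, and most subunits are encoded in the nucleus, as are all those measured here.

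The TG rats carried a VEGF-B transgene under the αMHC promoter, which is active in cardiomyocytes, and the WT rats were their littermates without it. There were 6 hearts in each group, from male rats of the outbred HsdBrl:WH Wistar background aged 2 months, and each heart was hybridised to 1 array. The sources did not say whether the TG rats came from 1 founder line. The samples were whole left ventricle, so that fewer cells of a type and less RNA per cell cannot be told apart. Each TG array detected 8820 to 9655 probes (9235 ± 310, SD, n = 6) and each WT array 8452 to 9251 (8817 ± 324), a difference with a two-sided exact permutation p of 0.0476. The rat Vegfb probe had intensities of 182 to 514 in TG hearts and 219 to 1242 in WT hearts (log2 difference -1.04, SE 0.58, limma adjusted p = 0.227). Whether that probe reads the transgene was not given, so it was no check of the labels.

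Values below are normalized log2 intensities, in which 1 unit is a doubling of signal, and differences are TG minus WT. A probe was tested when its signal was above the negative control beads on at least 6 of the 12 arrays, and called when limma gave a Benjamini-Hochberg adjusted p under 0.05 over all 9054 tested probes. Of the 33 subunit probes, 31 were tested. Cox8c, an isoform best known from testis, was detected on 0 TG and 0 WT arrays. Atp5mc3, which encodes 1 of the precursors of the membrane-rotor subunit c of complex V, was detected on 1 TG and 4 WT arrays. Neither gene was tested.

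Upstream of these genes, nuclear respiratory factors are known to tie the chain together. NRF1, the ETS-family factor GABP (also called NRF-2) and YY1 bind promoters of many subunit genes, and ERR and MEF2 factors act on mitochondrial and muscle genes. Promoters were read from RefSeq (rat build GRCr8, 250 bases before to 50 after each annotated start), and 29 of the 33 genes had an entry. The 4 others were Atp5pd, Cox6a1, Cox6c and Uqcrb. These windows are shown for 4 genes that carry the different motifs, with the motif in capitals. Sdha (chr1:30764303-30764602, plus strand) had 3 NRF1 matches, Uqcrc1 (chr8:118467973-118468272, plus strand) an NRF1 and a YY1 match, Cox4i1 (chr19:65630133-65630432, plus strand) 2 GABP matches, and Cox6a2 (chr1:192219667-192219966, minus strand) a MEF2 match.
Sdha: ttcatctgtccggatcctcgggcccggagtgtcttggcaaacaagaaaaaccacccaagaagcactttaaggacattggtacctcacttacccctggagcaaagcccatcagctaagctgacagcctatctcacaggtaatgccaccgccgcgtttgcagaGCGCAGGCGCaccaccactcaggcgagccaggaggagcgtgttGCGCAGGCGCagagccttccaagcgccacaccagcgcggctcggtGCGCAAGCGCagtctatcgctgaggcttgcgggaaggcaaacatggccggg
Uqcrc1: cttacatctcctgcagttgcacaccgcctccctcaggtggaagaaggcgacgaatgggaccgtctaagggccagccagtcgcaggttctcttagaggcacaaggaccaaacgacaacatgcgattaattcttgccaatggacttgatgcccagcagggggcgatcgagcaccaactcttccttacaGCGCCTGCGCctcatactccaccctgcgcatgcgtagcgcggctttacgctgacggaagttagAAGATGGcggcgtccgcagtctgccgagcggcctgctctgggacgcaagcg
Cox4i1: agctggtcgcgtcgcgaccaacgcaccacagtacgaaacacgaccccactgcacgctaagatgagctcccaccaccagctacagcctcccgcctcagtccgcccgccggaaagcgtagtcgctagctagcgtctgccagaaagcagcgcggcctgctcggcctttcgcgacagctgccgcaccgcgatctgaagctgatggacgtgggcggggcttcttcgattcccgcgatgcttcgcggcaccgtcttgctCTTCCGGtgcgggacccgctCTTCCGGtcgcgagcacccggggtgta
Cox6a2: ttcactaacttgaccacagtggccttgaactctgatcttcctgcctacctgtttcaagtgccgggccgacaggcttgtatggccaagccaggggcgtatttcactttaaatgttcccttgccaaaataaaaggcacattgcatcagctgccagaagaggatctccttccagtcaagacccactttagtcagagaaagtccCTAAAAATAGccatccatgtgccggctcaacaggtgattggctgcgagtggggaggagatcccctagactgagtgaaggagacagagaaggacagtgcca

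Both strands were searched. The NRF1 letters (GCGCA, any base, then GCGC) were in 7 of the 29 windows (24.1%), against 4.82% of the windows of 27457 genes. The GABP letters CCGGAAG were in 11 (37.9%, against 9.63%), and the YY1 letters AAGATGG in 6 (20.7%, against 7.77%). At least 1 of these 3 motifs was in 18 of the 29 windows. The ERR letters TCAAGGTCA were in the windows of Sdhd and Atp5mc3 (6.90%, against 0.441%), and the MEF2 letters (CTA, then 4 A, then TAG) only in that of Cox6a2, the heart and skeletal muscle isoform of its subunit (3.45%, against 0.142%). In Sdha the NRF1 matches began 89, 46 and 1 bases before the start, in Uqcrc1 the NRF1 match began 64 bases and the YY1 match 1 base before it, in Cox4i1 the GABP matches began at bases 4 and 24 counted from the start, and in Cox6a2 the MEF2 match began 50 bases before it. A match of letters describes the window and is not evidence of binding.

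Most subunits gave some of the brightest signals on the array. Of the 31 tested, 29 lay between the 92.5th and the 100th percentile of all tested probes, with normalized values of 11.61 to 15.11 in single hearts. Signals of different probes are not comparable as transcript amounts, so these percentiles do not say which subunit was most abundant. The median SD within groups was 0.078 log2 units over these 29 probes, against 0.165 over all tested probes and 0.102 over the 906 probes above the 90th percentile. The exceptions were Cox6c and Atp5mk, at the 15.6th and 36.8th percentile. At the other end, Atp5f1a was the brightest probe of the array in 4 TG and 2 WT hearts, where quantile normalization gives it the same value of 15.11 in each, and its highest intensity was 37843. Loss of range at such brightness was not tested.

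**Figure D1:**
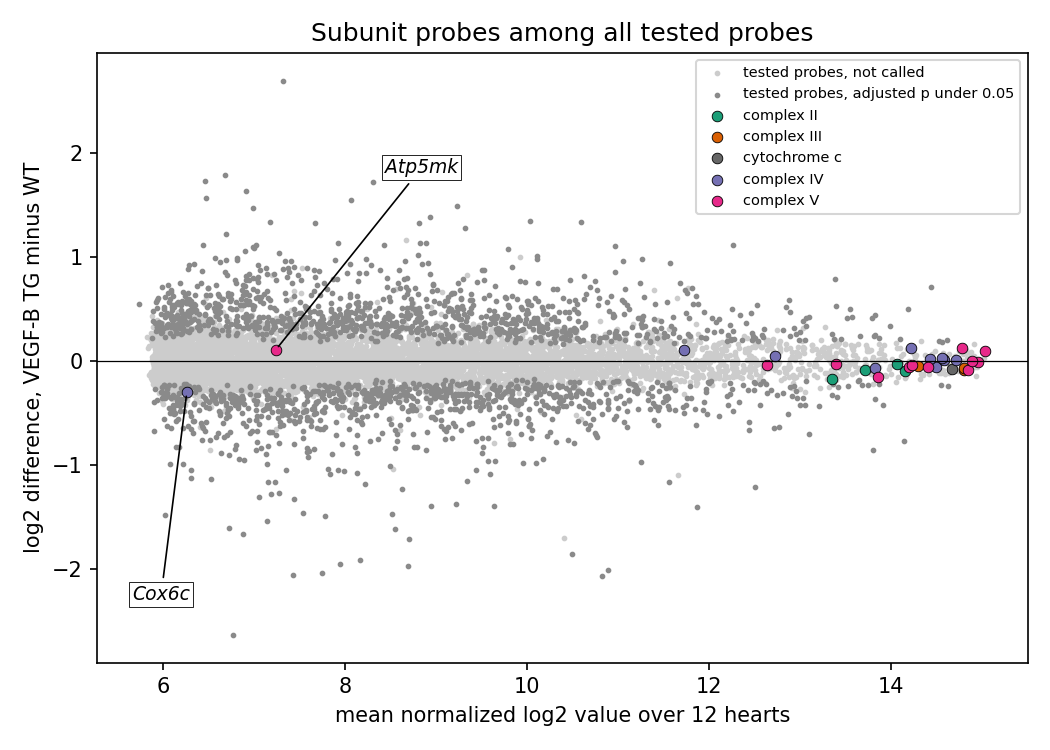
Log2 difference (VEGF-B TG minus WT) against the mean normalized log2 value over 12 hearts, with each dot a tested probe, dark grey where called, and subunits coloured by complex. Of the 31 subunits, 29 lie at the bright end within -0.18 to 0.12 of no difference, and Cox6c and Atp5mk lie at the dim end.

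In the TG hearts the subunits stayed close to WT. One of the 31 tested was called, Cox6c, which was lower in TG hearts, and 0 were higher. That is 3.23% of the subunits, against 21.9% of all tested probes (1981 of 9054), of which 11.6% were higher and 10.3% lower in TG hearts. None of the 31 had groups without overlap, which held for 10.8% of all tested probes. An unadjusted p under 0.05 was reached by 3 subunits, Cox6c, Sdha and Atp5f1d, against 34.5% of all tested probes. The brightness of the subunits is one way in which they differ from other probes. Among all probes above the 90th percentile 22.7% were called, and among the 100 probes with a mean over 14, a limit set after the values were seen, 9 were called. Of those 100 probes 21 were subunits, and 0 of these 21 were called.

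For the 29 bright subunits, differences in probe signal ran between -0.18 and 0.12, with SEs of 0.055 to 0.076, and the 95% intervals all lay between -0.34 and 0.28, that is between 0.791-fold and 1.21-fold of WT. The median absolute difference was 0.060 over these 29, against 0.139 over all tested probes and 0.121 over the probes above the 90th percentile. Over the 31 tested subunits the median difference was -0.04, against -0.01 over all tested probes, with 19 negative and 12 positive. The mean over the 29 bright subunits was 14.12 to 14.19 in TG hearts and 14.16 to 14.20 in WT hearts. These ranges overlapped. All folds and intervals are those of probe signal, and whether signal was compressed at this brightness was not tested.

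**Figure D2:**
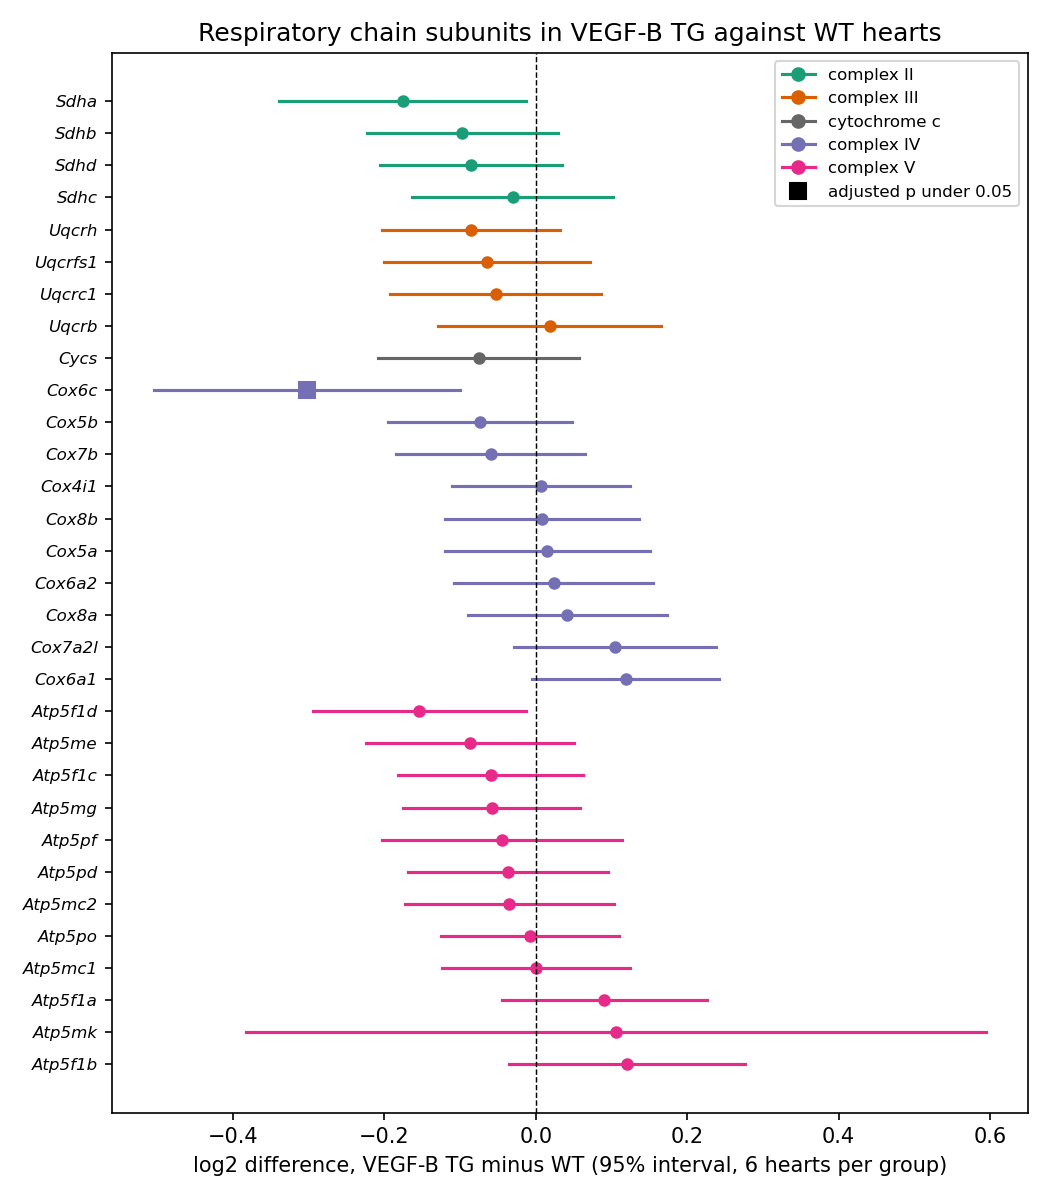
Log2 difference (VEGF-B TG minus WT) of each of the 31 tested subunits with its 95% interval from limma, 6 hearts per group, coloured by complex, with a square for adjusted p under 0.05. Cox6c at -0.30 is the only called subunit, and the interval of Atp5mk, -0.38 to 0.59, is the widest.

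Complex II, the only complex whose subunits are also an enzyme of the citric acid cycle, had negative differences for all 4 subunits, with a median of -0.09, and 0 of the 4 were called. Sdha is the flavoprotein that oxidises succinate. Sdha (probe ILMN_1357678) had 13.29, 13.47, 13.32, 13.27, 13.20 and 13.06 in TG hearts 1 to 6, against 13.35, 13.57, 13.59, 13.36, 13.41 and 13.39 in WT hearts 1 to 6. TG hearts other than replicate 2 were below every WT heart, and replicate 2 lay above 4 of the 6 WT hearts. The mean was 13.27 ± 0.13 in TG hearts and 13.44 ± 0.11 in WT hearts (SD, n = 6 each), a difference of -0.18 (SE 0.08, limma adjusted p = 0.118), which did not pass the threshold.

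The other 3 subunits of complex II differed by less. Sdhb, the iron-sulfur subunit, averaged 14.11 ± 0.05 in TG hearts and 14.21 ± 0.08 in WT hearts (difference -0.10, adjusted p = 0.265), and its WT mean includes replicate 1 at 14.36, apart from the other WT hearts at 14.14 to 14.21. Of the membrane anchors, Sdhd averaged 13.67 ± 0.06 in TG hearts and 13.76 ± 0.06 in WT hearts (-0.09, adjusted p = 0.306), and Sdhc 14.05 ± 0.06 in TG hearts and 14.08 ± 0.10 in WT hearts (-0.03, adjusted p = 0.773). Averaged over the 4 subunits, TG hearts had 13.72 to 13.83 (13.78 ± 0.05) and WT hearts 13.83 to 13.92 (13.87 ± 0.03). The highest TG heart and the lowest WT heart met at 13.83. This average was formed after the values of the genes were known and was given no test.

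Of complex III, 4 subunits were measured and 0 were called, with a median difference of -0.06. Uqcrc1, a core subunit on the matrix side, had 14.39, 14.14, 14.41, 14.29, 14.19 and 14.19 in TG hearts 1 to 6, against 14.21, 14.31, 14.32, 14.33, 14.34 and 14.40 in WT hearts 1 to 6. The TG hearts were spread over the whole WT range and beyond both ends of it, and the difference was -0.05 (SE 0.07, adjusted p = 0.606). Uqcrh, the hinge protein at the cytochrome c1 docking site, had the largest difference of the complex, -0.09 (SE 0.06, adjusted p = 0.296), with 14.76, 14.81, 14.78, 14.81, 14.68 and 14.72 in TG hearts, against 14.91, 14.75, 14.85, 14.83, 14.85 and 14.88 in WT hearts. WT replicate 2 lay inside the TG range and the other 5 WT hearts above it. Uqcrfs1, the Rieske iron-sulfur protein, differed by -0.06 (adjusted p = 0.511) and Uqcrb, a small subunit near the quinone site, by 0.02 (adjusted p = 0.882).

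Cytochrome c carries electrons between complexes III and IV and is also released in apoptosis. Cycs had 14.64, 14.54, 14.68, 14.66, 14.57 and 14.70 in TG hearts 1 to 6, against 14.78, 14.66, 14.66, 14.63, 14.86 and 14.65 in WT hearts 1 to 6. WT replicates 1 and 5 were above all TG hearts and the other 4 WT hearts lay within the TG range. The mean was 14.63 ± 0.06 in TG hearts and 14.71 ± 0.09 in WT hearts (SD, n = 6 each), and the difference of -0.08 (95% interval -0.21 to 0.06, adjusted p = 0.417) was not called.

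Complex IV held the single called subunit. Cox6c, a small nuclear-encoded subunit of the oxidase, had normalized values of 6.12, 6.12, 5.94, 6.27, 6.00 and 6.22 in TG hearts 1 to 6, against 6.58, 6.52, 6.29, 6.68, 6.22 and 6.20 in WT hearts 1 to 6. WT replicates 1 to 4 were above every TG heart, WT replicates 5 and 6 lay within the TG range, and the groups overlapped. The mean was 6.11 ± 0.13 in TG hearts and 6.42 ± 0.20 in WT hearts (SD, n = 6 each), a difference of -0.30 (SE 0.09, 95% interval -0.50 to -0.10, 0.811-fold, adjusted p = 0.0338). The probe (ILMN_1363585) was dim, with uncorrected intensities of 184 to 200 in TG hearts and 196 to 245 in WT hearts, where the lowest intensity on the arrays was 101. The call was lost when the background was left in (-0.14, adjusted p = 0.0624), with median scaling (-0.28, adjusted p = 0.0521), without the detection filter (-0.30, adjusted p = 0.0567) and with the deposited log2 values (-0.14, adjusted p = 0.0671), and it held in 5 of the 12 fits that each left out 1 heart.

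**Figure D3:**
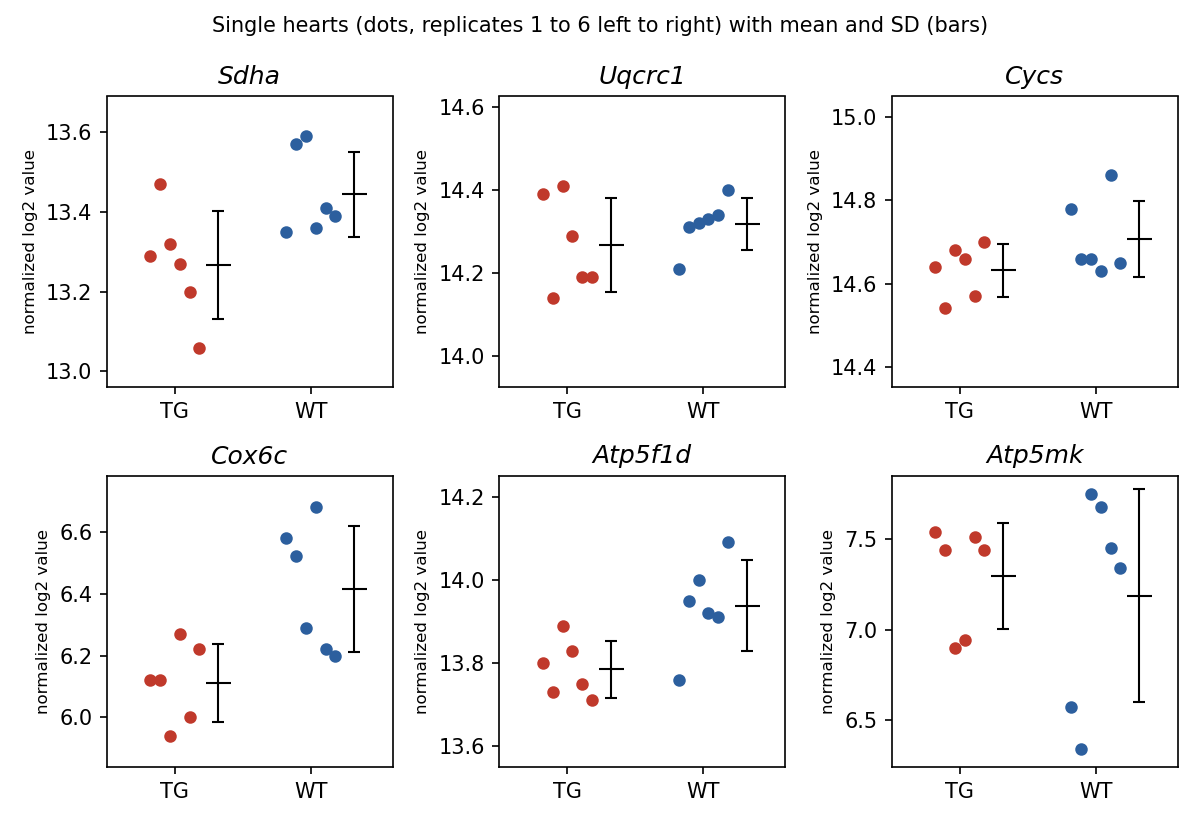
Normalized log2 value of 6 subunits in each heart (dots, replicates 1 to 6 from left to right, VEGF-B TG in red, WT in blue), with mean and SD of 6 hearts, on an axis of its own for each gene that does not start at 0. The groups overlap for all 6, and Atp5mk has low hearts in both groups.

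The other 9 tested subunits of complex IV were bright and none of them was called, with differences of -0.07 to 0.12. Cox6a1 had the largest of these with quantile normalization, at 14.29, 14.26, 14.17, 14.21, 14.39 and 14.36 in TG hearts 1 to 6, against 14.17, 14.17, 14.21, 14.15, 14.12 and 14.14 in WT hearts 1 to 6. TG replicates 1, 2, 5 and 6 were above all WT hearts, and TG replicates 3 and 4 lay within the WT range (difference 0.12, SE 0.06, adjusted p = 0.162). With median scaling its difference was 0.05 (adjusted p = 0.707). Cox7a2l, which helps to join complexes III and IV into a supercomplex, differed by 0.10 (adjusted p = 0.256), and by 0.04 with median scaling. Cox4i1 and Cox5a, which join the growing enzyme early, differed by 0.01 (adjusted p = 0.948) and 0.02 (adjusted p = 0.892), Cox5b by -0.07 (adjusted p = 0.385; -0.13 with median scaling, then larger in size than Cox6a1) and Cox7b by -0.06 (adjusted p = 0.507).

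Complex IV has pairs of isoforms in which 1 member is found mainly in heart and skeletal muscle. Cox6a2, the muscle partner of Cox6a1, had 14.45, 14.68, 14.62, 14.69, 14.50 and 14.51 in TG hearts, against 14.58, 14.48, 14.59, 14.55, 14.55 and 14.55 in WT hearts (difference 0.02, adjusted p = 0.823). Cox8b, the muscle form in rodents, had 14.74, 14.80, 14.70, 14.74, 14.69 and 14.66 in TG hearts, against 14.64, 14.60, 14.74, 14.80, 14.82 and 14.68 in WT hearts (0.01, adjusted p = 0.946). Cox8a, its widely expressed partner, had 12.80, 12.67, 12.75, 12.71, 12.73 and 12.83 in TG hearts, against 12.82, 12.74, 12.62, 12.69, 12.59 and 12.79 in WT hearts (0.04, adjusted p = 0.675). In each of these 3 genes the TG and WT hearts were interleaved, and neither the muscle nor the widely expressed forms were called. The 95% interval was -0.11 to 0.15 for Cox6a2, -0.12 to 0.14 for Cox8b, -0.09 to 0.17 for Cox8a and -0.00487 to 0.24 for Cox6a1.

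Of the 12 tested subunits of complex V, 0 were called, and the median difference was -0.04. In the catalytic F1 head, Atp5f1a (alpha) differed by 0.09 (adjusted p = 0.339) and Atp5f1b (beta, which carries the catalytic sites) by 0.12 (SE 0.07, adjusted p = 0.264). Atp5f1d, the delta subunit of the central stalk, had the largest difference of the bright complex V subunits. It had 13.80, 13.73, 13.89, 13.83, 13.75 and 13.71 in TG hearts 1 to 6, against 13.76 in WT heart 1 and 13.91 to 14.09 in WT hearts 2 to 6. WT replicate 1 lay within the TG range and the other 5 WT hearts were above every TG heart. The mean was 13.79 ± 0.07 in TG hearts and 13.94 ± 0.11 in WT hearts (SD, n = 6 each), a difference of -0.15 (SE 0.07, adjusted p = 0.113), which passed the threshold only with trended and robust variances (adjusted p = 0.0400). Atp5f1c, the gamma subunit of the same stalk, differed by -0.06 (adjusted p = 0.498).

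The proton-driven rotor of complex V is a ring of subunit c, for which Atp5mc1 and Atp5mc2 encode the same mature protein behind different import sequences. Atp5mc1 had 14.89, 14.85, 14.84, 14.90, 14.99 and 14.87 in TG hearts, against 14.77, 14.87, 14.91, 14.87, 14.97 and 14.96 in WT hearts (difference 0.00, 95% interval -0.12 to 0.12, adjusted p = 0.999). Atp5mc2 had 13.35, 13.43, 13.48, 13.45, 13.35 and 13.18 in TG hearts, against 13.42, 13.39, 13.32, 13.43, 13.50 and 13.41 in WT hearts (-0.04, 95% interval -0.17 to 0.10, adjusted p = 0.745). The groups overlapped in both genes, with TG replicate 6 lowest for Atp5mc2. The peripheral stalk subunits Atp5pd, Atp5pf and Atp5po differed by -0.04, -0.04 and -0.01, and the small membrane subunits Atp5me and Atp5mg by -0.09 and -0.06, with adjusted p of 0.366 to 0.940.

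Atp5mk, a small membrane subunit linked to the pairing of ATP synthase molecules, varied more between hearts than the others did. It had 7.54, 7.44, 6.90, 6.94, 7.51 and 7.44 in TG hearts 1 to 6, against 6.57, 6.34, 7.75, 7.68, 7.45 and 7.34 in WT hearts 1 to 6. TG replicates 3 and 4 and WT replicates 1 and 2 were low, so that each group held hearts apart from its others and the groups overlapped. The SD within groups was 0.466, against a median of 0.079 over the 31 subunits, and the difference of 0.11 (SE 0.23, 95% interval -0.38 to 0.59, adjusted p = 0.785) allowed anything between 0.767-fold and 1.51-fold of WT.

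**Figure D4:**
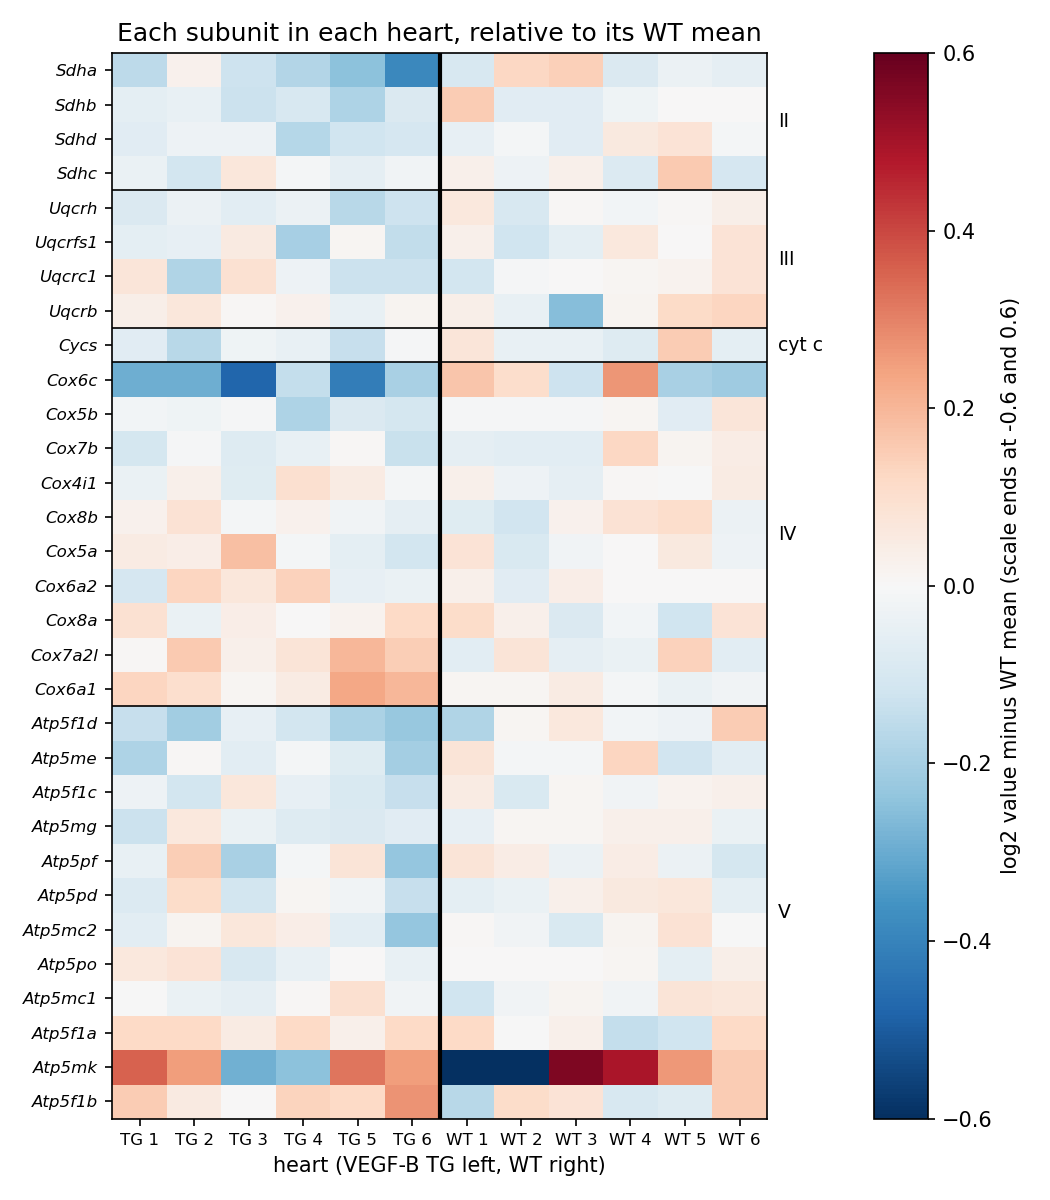
Each of the 31 tested subunits (rows, by complex) in each heart (columns, VEGF-B TG left and WT right of the black line), as the log2 value minus the WT mean of that gene, with the colour scale ending at -0.6 and 0.6. Most cells are near 0, Cox6c is blue in all TG hearts, and Atp5mk has strong colours in both groups.

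Genes that build the complexes, taken from 4 lists with 50 assembly factors of complexes II to V in all, held 8 calls beside the 1 of the subunits, and this contrast was not tested. Of the 27 tested, 8 were lower in TG hearts (29.6%, against 10.3% of all tested probes) and 0 were higher, with a median of -0.13. In either direction, the share called was 29.6%, against 21.9% of all tested probes. Cox17, the chaperone that hands copper on towards complex IV, had 12.41, 12.26, 12.38, 12.58, 12.38 and 12.32 in TG hearts 1 to 6, against 13.10, 12.98, 12.94, 13.23, 12.95 and 12.98 in WT hearts 1 to 6. Every TG heart was below every WT heart, and the difference was -0.65 (SE 0.07, 0.639-fold, adjusted p = 2.65e-05).

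The remaining called assembly factors belonged to all 4 complexes. For complex II, Sdhaf2, which attaches the flavin to Sdha, had 10.35 to 10.83 in TG hearts and 10.85 to 11.10 in WT hearts (-0.39, SE 0.08, adjusted p = 0.00469), and Sdhaf3, which acts on the iron-sulfur subunit, differed by -0.30 (adjusted p = 0.0314). Uqcc5, needed for complex III, had 9.91 to 10.66 in TG hearts and 10.67 to 10.87 in WT hearts (-0.44, SE 0.11, adjusted p = 0.00947). For complex IV, Coa5 differed by -0.31 (adjusted p = 0.00330) and Cox15, which makes haem A, by -0.22 (adjusted p = 0.0334). For complex V, Tmem70, which helps to insert subunit c, differed by -0.26 (adjusted p = 0.0115) and Atpsckmt, which methylates subunit c, by -0.31 (adjusted p = 0.0421). In Sdhaf2, Uqcc5, Coa5, Cox15 and Tmem70 the groups did not overlap, though in Tmem70 both reached 11.25 when rounded. In Sdhaf3 and Atpsckmt they overlapped. With Cox17, the groups did not overlap in 6 of the 27 tested assembly factors, against 10.8% of all tested probes. The 4 lists together gave 5 to 8 calls over the alternative settings and over the fits that left out 1 heart, at 5 when TG replicate 5 or 6 or WT replicate 1, 4 or 5 was absent, and each of their genes rests on 1 probe except Smim20, which has 2.

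Complex I subunits, listed for comparison, had 5 calls among 27 tested (18.5%, against 21.9% of all tested probes). Ndufs7, an iron-sulfur subunit on the path to ubiquinone, had 12.60 to 12.91 in TG hearts and 13.07 to 13.34 in WT hearts, without overlap (-0.43, SE 0.07, adjusted p = 0.000662). Ndufb6 (-0.29, adjusted p = 0.0189), Ndufb4 (-0.27, adjusted p = 0.0349) and Ndufa8 (-0.21, adjusted p = 0.0483) were also lower, and Ndufa7 (0.30, adjusted p = 0.0470) was higher. Ndufb4 was detected on 1 TG and 5 WT arrays, and Ndufa7 on 6 TG and 5 WT arrays, so both were dim. Ndufb4 passed the detection filter mainly through the WT hearts, the group in which it was higher, and the 5 calls include it. The median over the 27 was -0.08. The number of calls was 2 to 6 over the alternative settings and 2 to 4 with 1 heart left out, at 4 without TG replicate 1 or WT replicate 5 and at 2 or 3 without any other heart.

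Regulators of mitochondrial gene expression gave 1 call among 12 tested, against 21.9% of all tested probes, with a median of -0.08. The number of calls was 1 to 3 over the alternative settings and 0 to 3 with 1 heart left out, at 0 without TG replicate 4 or 6 or any of WT replicates 1 to 5, and at 3 without TG replicate 1. Pprc1, a coactivator related to PGC-1, was higher (0.25, SE 0.09, adjusted p = 0.0458). Ppargc1a, which encodes PGC-1α, differed by 0.02 (adjusted p = 0.892), and Tfam and Tfb2m, which transcribe the mitochondrial genome with its polymerase, by -0.16 (adjusted p = 0.0604) and -0.17 (adjusted p = 0.0573). Nrf1, Gabpb1 and Sp1 were on the array but too dim to be tested. Among 18 genes of other mitochondrial proteins, listed as a measure of mitochondrial content, 1 was lower (5.56%, against 10.3% of all tested probes) and 0 were higher. The lower gene was Tufm, the mitochondrial elongation factor (-0.24, adjusted p = 0.0255, not called when TG replicate 2 or 3 or WT replicate 1 or 6 was absent). The median of the list was -0.04, beside -0.04 for the subunits.

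Marker transcripts of several cell types differed between the groups. Endothelial markers were higher in TG hearts for 5 of 5 tested genes (median 0.65), against 11.6% of all tested probes. Among them were Emcn (0.65), Tie1 (0.65) and Icam2 (0.71). Their mean levels were 10.17 to 10.46 in TG hearts and 9.45 to 9.74 in WT hearts. Pericyte markers were higher for 4 of 4 (median 0.84), against the same 11.6%, among them Vtn (0.81), Kcnj8 (0.88) and Mcam (0.99). The remaining pericyte gene, Rgs5 (0.32, adjusted p = 0.0349), was dim, detected on 6 TG arrays and 1 WT array. It passed the detection filter through the TG hearts. The pericyte list gave 2 to 4 calls over the alternative settings and 3 to 4 with 1 heart left out, with medians of 0.56 to 0.89. Of 7 cardiomyocyte markers, Myl2 (-0.33, adjusted p = 0.0218) and Ryr2 (-0.32, adjusted p = 0.0117) were lower and 0 were higher. The share called lower was 28.6%, against 10.3% of all tested probes. Ryr2 had 4 probes and Tie1 had 2, and for both the brightest is given. Of the 7 cardiomyocyte differences 4 were negative, and the median was -0.02. The mean level of the 7 was 12.34 to 12.41 in TG hearts and 12.44 to 12.47 in WT hearts. Myl2 and Ryr2 had the largest differences in this mean, while Myh6 (0.07), Tnnt2 (0.07) and Ckm (0.04) were above 0 and not called. Of the other cell type markers, 1 of 5 fibroblast genes was lower (Pdgfra, -0.44), which is 20%, against 10.3% of all tested probes. Pdgfra was the only negative difference of that list, whose median was 0.07. Of 4 erythrocyte genes 0 were called (Hbb, the brightest, 0.03, adjusted p = 0.753), against 21.9% of all tested probes. The single tested smooth muscle gene (Tagln, -0.49) was lower, and the single tested macrophage gene (Fcer1g, 0.60) was higher. Of the adipocyte list only Cidea was tested and lower (-0.56), while Adipoq, Lep and Ucp1 were detected on 0 TG and 0 WT arrays, so its signal came without that of these adipocyte genes. The part of these shifts in the values of Cox6c, of the assembly factors and of the other subunits was not tested.

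**Figure D5:**
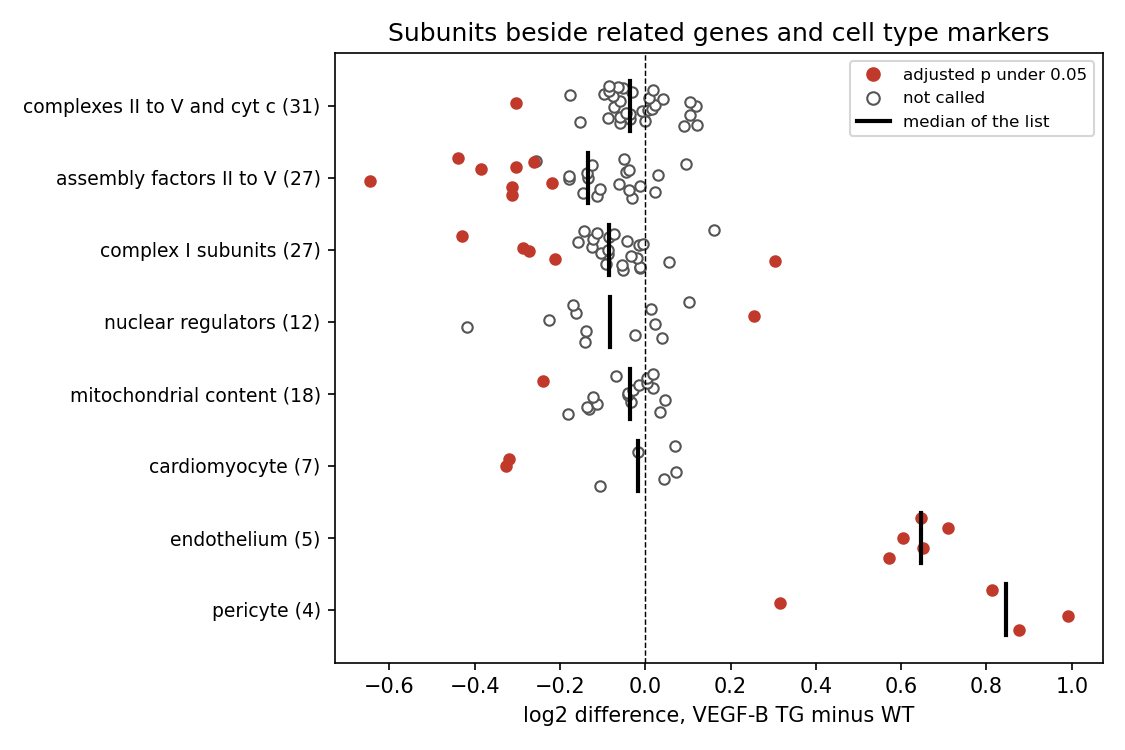
Log2 difference (VEGF-B TG minus WT) of each tested gene (dots, red where the adjusted p is under 0.05) in the subunits of complexes II to V with cytochrome c and in the lists set beside them, the number tested in brackets and the median as a bar. The subunits sit around -0.04 with 1 call, the assembly factors have 8 calls below 0, and the endothelial and pericyte markers all lie above 0.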

How the data were processed

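Total RNA of 12 left ventricles was amplified to biotinylated cRNA and hybridised to Illumina RatRef-12 BeadChips. The authors deposited an intensity and a detection p-value per probe and array, as the bead software exported them, and a table of quantile-normalized log2 values, made in Chipster per the labels and methods, with versions not given in the sources used here. Intensities were background-corrected with the detection p-values, quantile-normalized and put on a log2 scale (neqc of limma 3.58.1, offset 16, R 4.3.3). Of 22517 probes, the 9054 detected at p under 0.05 by 6 or more of the 12 arrays were fitted on TG against WT (lmFit and eBayes, Benjamini-Hochberg over all tested probes, threshold 0.05). Intervals are at 95%. The number of arrays limits the precision, and the labels call the hearts separate littermates, so p-values measure the spread between animals.

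Probes were named from the platform annotation, 13787 with 1 symbol and 8730 with none, and 13747 symbols were updated through gene numbers to RefSeq (GRCr8). Subunits have 1 probe each, and for listed genes with several probes the brightest was used. The subunits and lists were chosen with earlier results of these data known. Every subunit may be named. Single hearts were given for Sdha, Uqcrc1, Cycs, Cox6c, called subunits, the largest difference of each complex and isoform pairs, and Atp5mk was added after its spread was seen. Of each comparison list (assembly factors of each complex apart) up to 3 genes with the smallest p past the threshold were named. Adipoq, Lep, Ucp1, Nrf1, Gabpb1, Sp1, Ndufa8, Ndufa7, Ppargc1a, Tfam, Tfb2m and Rgs5 were named after their values were seen. Alternatives were no background correction, normexp with offset 50, median scaling, the deposited log2 values (which differed from recomputed quantile log2 values by at most 0.005), no filter, a filter of detection p under 0.01 on all arrays (6301 probes), trended and robust variances, the replicate number as a block, the mean of a gene's probes, and leaving out each heart. The fit was also run on simulated data with noise independent between probes and with changes larger than those of the subunits. That run does not measure power or error for the subunits.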

Additional observations from a re-analysis of the deposited data

Results flagged for a closer look

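In each of 66 groups of 6 hearts (33 subunits in TG and in WT hearts), the highest and the lowest heart were compared with the others by Dixon's ratio of gap to range at its 95% limit. Chance sets apart about 1 in 20 groups, and 3 of the 66 were set apart, all among WT hearts and each in a different heart. Sdhb, the iron-sulfur subunit of complex II, was 14.36 in WT replicate 1, above the other WT hearts at 14.14 to 14.21. Cox6a2, the muscle isoform in complex IV, was 14.48 in WT replicate 2, below the others at 14.55 to 14.59. Atp5po, a peripheral stalk subunit of complex V, was 14.90 in WT replicate 5, below the others at 14.96 to 14.99. None of the 3 genes was called with all hearts or with any 1 heart left out.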

How the results depend on the processing

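The number of called subunits, 1 of 31 and lower in TG hearts, was 0 without background correction, with median scaling, with the deposited log2 values, without the detection filter and with the stricter filter, which leaves out Cox6c and Atp5mk. It was 2 with trended and robust variances (Cox6c and Atp5f1d), 1 with normexp and 0 to 1 when 1 heart was left out. No subunit was called higher in any setting. Cox6c differed by -0.30 to -0.14 over the alternatives that held it (adjusted p 0.0232 to 0.0671) and by -0.35 to -0.25 with 1 heart left out (adjusted p 0.0224 to 0.0742). Its call was lost when TG replicate 1, 2, 3 or 5, or WT replicate 1, 2 or 4, was absent.

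Median scaling gave medians of -0.08 over the subunits, -0.15 in complex II, -0.03 in complex IV and -0.08 in complex V, against a median of 0.02 over all tested probes. It turned uncalled values near 0 in Uqcrb (-0.01), Cox4i1 (-0.05), Cox5a (-0.06), Cox6a2 (-0.02), Cox8a (-0.02), Cox8b (-0.01) and Atp5po (0.01). With 1 heart left out, the medians were -0.05 to -0.02 over the subunits and -0.05 to 0.00 in complex V, nearest to 0 without TG replicate 6 in both, and uncalled signs turned within -0.05 to 0.00 for Sdhc, -0.03 to 0.04 for Uqcrb, -0.01 to 0.02 for Cox4i1, -0.02 to 0.04 for Cox5a, -0.02 to 0.03 for Cox8b, -0.02 to 0.02 for Atp5mc1, -0.06 to 0.00 for Atp5mc2, -0.06 to 0.22 for Atp5mk and -0.03 to 0.01 for Atp5po. The sign of 20 subunits was kept in every setting. The cause of these changes was not tested.

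The labels tie no replicate numbers across groups, and the numbers were not taken as pairs. Deviations of same-numbered hearts correlated at 0.19 to 0.23 for 4 numbers and at -0.14 and -0.07 for the other 2, and 3 of 6 numbers matched best with themselves. With the replicate number as a block, all-probe calls were 1928, against 1981, and Cox6c remained the called subunit (-0.30, adjusted p = 0.0232). At the dim end, Cox6c lay at the 15.6th and Atp5mk at the 36.8th percentile of tested probes. Both were detected on 6 TG and 6 WT arrays. The part of low signal in their values was not tested.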
